A study of Mus musculus with 30 samples.

Results

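The enteric neuron and neurotransmitter genes are 35 genes that mark nerve cells of the gut wall or serve their transmission. They were listed by symbol, with earlier results of these data known, and all 35 were found among the 28586 gene symbols in the count tables of the series. They comprise 10 pan-neuronal and axonal genes, 5 genes of synaptic vesicles and dense-core granules, 2 lineage transcription factors, 10 neuropeptide genes, 1 gene of nitric oxide synthesis, 4 cholinergic genes and 3 genes of catecholamine synthesis. The study followed the muscularis externa (ME), the muscle coat of the small bowel with the ganglia inside it, in a mouse model of post-operative ileus. Mice were either naive or were killed 3, 24 or 72 h after intestinal manipulation (IM), an abdominal operation in which the bowel is handled, and the groups are called IM3h, IM24h and IM72h. Each time point was measured in total RNA of the ME lysate (3 naive, 3 IM3h, 4 IM24h and 4 IM72h libraries) and in RiboTag pulldown mRNA (3 naive and 4 of each later group), in which mRNA is recovered on HA-tagged ribosomes. All mice carried the Rpl22 tag allele (B6N.129 Rpl22tm1.1Psam/J) and, by the study's methods, were adult males. The tag was switched on by B6 Tg(Sox10-icre/ERT2)388Wdr/J, a tamoxifen-inducible Cre under a glial promoter, in every RiboTag group and in ME IM24h and ME IM72h, whereas the labels give the Cre line B6.Cg-Tg73.12Mvs/J(Gfap-cre) for ME naive and ME IM3h. The study's methods name no mouse line with Gfap-cre, so whether these libraries came from another line is not settled here. By the labels, the comparisons of ME IM3h with naive and of ME IM72h with IM24h were within 1 Cre line, while the Cre line and the time point cannot be told apart in ME IM24h or IM72h against naive, nor the line and the fraction in naive RiboTag against naive ME. The same limit applies to tests of whether a change from naive differs between the fractions.

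Enteric neurons lie in the myenteric plexus between the muscle layers and drive the muscle through excitatory and inhibitory motor neurons. Excitatory neurons release acetylcholine and tachykinins, inhibitory neurons release nitric oxide and vasoactive intestinal peptide, and interneurons and sensory neurons add peptides such as galanin, enkephalin, somatostatin and calcitonin gene-related peptide. Noradrenaline reaches the plexus mainly through axons of sympathetic neurons whose cell bodies, and so most of their mRNA, lie outside the gut wall.

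Library totals ran from 6603170 to 12866062 counts in ME and from 3010306 to 7899493 in RiboTag. The transcript AY036118 took 16.1% to 33.5% of the counts in naive and IM3h ME but 1.33% to 6.5% at IM24h and IM72h, and in the pulldown it took 58% to 80.1% at IM72h and 59.2% and 58.1% in libraries 2 and 3 of IM24h. Levels are given in CPM, counts scaled to a common library size by the trimmed mean of M values (TMM), within a fraction unless stated. The libraries count transcript ends, so CPM can be set side by side between genes without a correction for length. All 35 genes had counts in naive ME, and 34 or 35 in the later ME libraries and in naive RiboTag, against 17 to 25 in RiboTag IM72h. Of all genes, 16965 to 18818 had counts in the naive RiboTag libraries and 8814 to 11729 in those of IM72h. In such bulk RNA, fewer neurons and less RNA per neuron cannot be told apart. Markers of other cells moved over the same time course in ME. The summed level of 8 smooth muscle markers was 23027 to 24704 CPM in naive, 3426 to 11294 at IM24h and 13200 to 21562 at IM72h, that of 8 monocyte and neutrophil markers went from 10.6 to 12.2 up to 183 to 355 and then 93.2 to 133, that of 8 macrophage markers from 196 to 201 up to 396 to 538 and then 1173 to 1464, and that of 10 glial markers was 294 to 346, 179 to 264 and 368 to 516. Markers of interstitial cells of Cajal, the pacemaker cells of the gut, had a median summed level of 390 CPM in naive, 295 at IM24h and 205 at IM72h, where 4 of 5 were called lower and 1 higher. The median of the 5 adipocyte markers was 390, 93.7 and 73.8 CPM, with 5 of 5 called lower in both later groups, and that of the 6 mesothelial markers 163, 23.2 and 69.4 CPM. At IM3h the mesothelial median was 16.8 CPM. The median summed level of the 7 fibroblast markers was 3003 CPM in naive, 1551 at IM3h, 2469 at IM24h and 4761 at IM72h. Their part in the results on neuronal genes was not tested.

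In naive ME, the highest of the 35 genes was Map1b, a microtubule-associated protein of axons, at 363, 346 and 341 CPM. Hand2, a transcription factor of the neural crest lineage that other cells of the muscle coat also use, followed at 215, 242 and 219 CPM, and Gal, the precursor of galanin, at 226, 164 and 238 CPM. The libraries of Hand2 and Gal overlapped, so their order is not fixed. Among vesicle and granule genes Scg2 (secretogranin II) and Syt1, the calcium sensor of vesicle release, stood highest, among cholinergic genes Slc5a7, the choline transporter, and Chrna3, a nicotinic receptor subunit, whose libraries overlapped those of Slc18a3. Nos1, the neuronal nitric oxide synthase, was the only nitrergic gene taken and had 71.4, 63 and 61.6 CPM. Th, the rate-limiting enzyme of catecholamine synthesis, was close to absent, with 0.362, 0.43 and 0.604 CPM in naive ME and at most 0.604 CPM in any ME library, and it was too low to be tested in any comparison. Dbh, which makes noradrenaline, had 4.1, 6.66 and 4.71 CPM. Ddc, the decarboxylase shared by dopamine and serotonin synthesis, had 25.6, 17 and 22.2 CPM.

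After manipulation, 19 of the neuronal genes fell in ME by 24 h and 24 by 72 h, with a median below 0 under each of 6 scalings at 24 h and under 5 of them at 72 h (0.14 with no scaling), while Vip and Gal rose at 3 and 24 h. At IM3h, 3 of the 34 genes tested rose and 3 fell at an adjusted p under 0.05, beside 19.3% and 13.4% of all 15333 genes tested. At IM24h, 2 rose and 19 of 34 fell, beside 15.6% and 13.4% of 16328 genes. At IM72h, 3 rose and 24 of 34 fell, beside 29.3% and 28.3% of 16592 genes. Over the 34 genes the median log2 fold change was -0.04, -0.78 and -0.86 in the order of time, where the median of all genes was 0.00, 0.02 and 0.02. With the study's own rule (unadjusted p under 0.05 and over 2-fold), the 3 h comparison had 1 gene up and 1 down (beside 11.3% and 7.14% of all genes). The 24 h comparison had 2 up and 13 down (12.1% and 11.3%), and the 72 h comparison 0 up and 14 down (17.2% and 15.6%). All IM24h libraries lay below all naive libraries for 22 of the 34 genes and above them for 3, beside 20.8% and 20.1% of all genes, and the same held at IM72h for 23 and 3, beside 27.7% and 31.1%. The 3 comparisons share the naive libraries. The counts depend on how libraries are scaled: with library totals 6 rose and 10 fell at IM24h and 7 rose and 13 fell at IM72h, with no scaling 8 rose and 6 fell at IM72h, and with the reference genes Actb, Hsp90ab1 and Rplp1 17 fell at IM3h. The scalings moved the median of all genes itself, to between -0.35 and 0.66 at IM24h and between -0.58 and 0.98 at IM72h. Relative to the median of all genes under the same scaling, the median of the 34 genes stayed between -0.83 and -0.79 at IM24h and between -0.89 and -0.85 at IM72h under each of the 6 scalings. A change of scaling shifts all genes of a comparison almost alike, so this difference could hardly move. It therefore does not show that the fall is stable. With 3 or 4 libraries a group an exact permutation test over samples cannot go below 0.1 (3 against 3), 0.0571 (4 against 3) or 0.0286 (4 against 4), so calls rest on edgeR's quasi-likelihood test fitted across all genes.

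**Figure D1:**
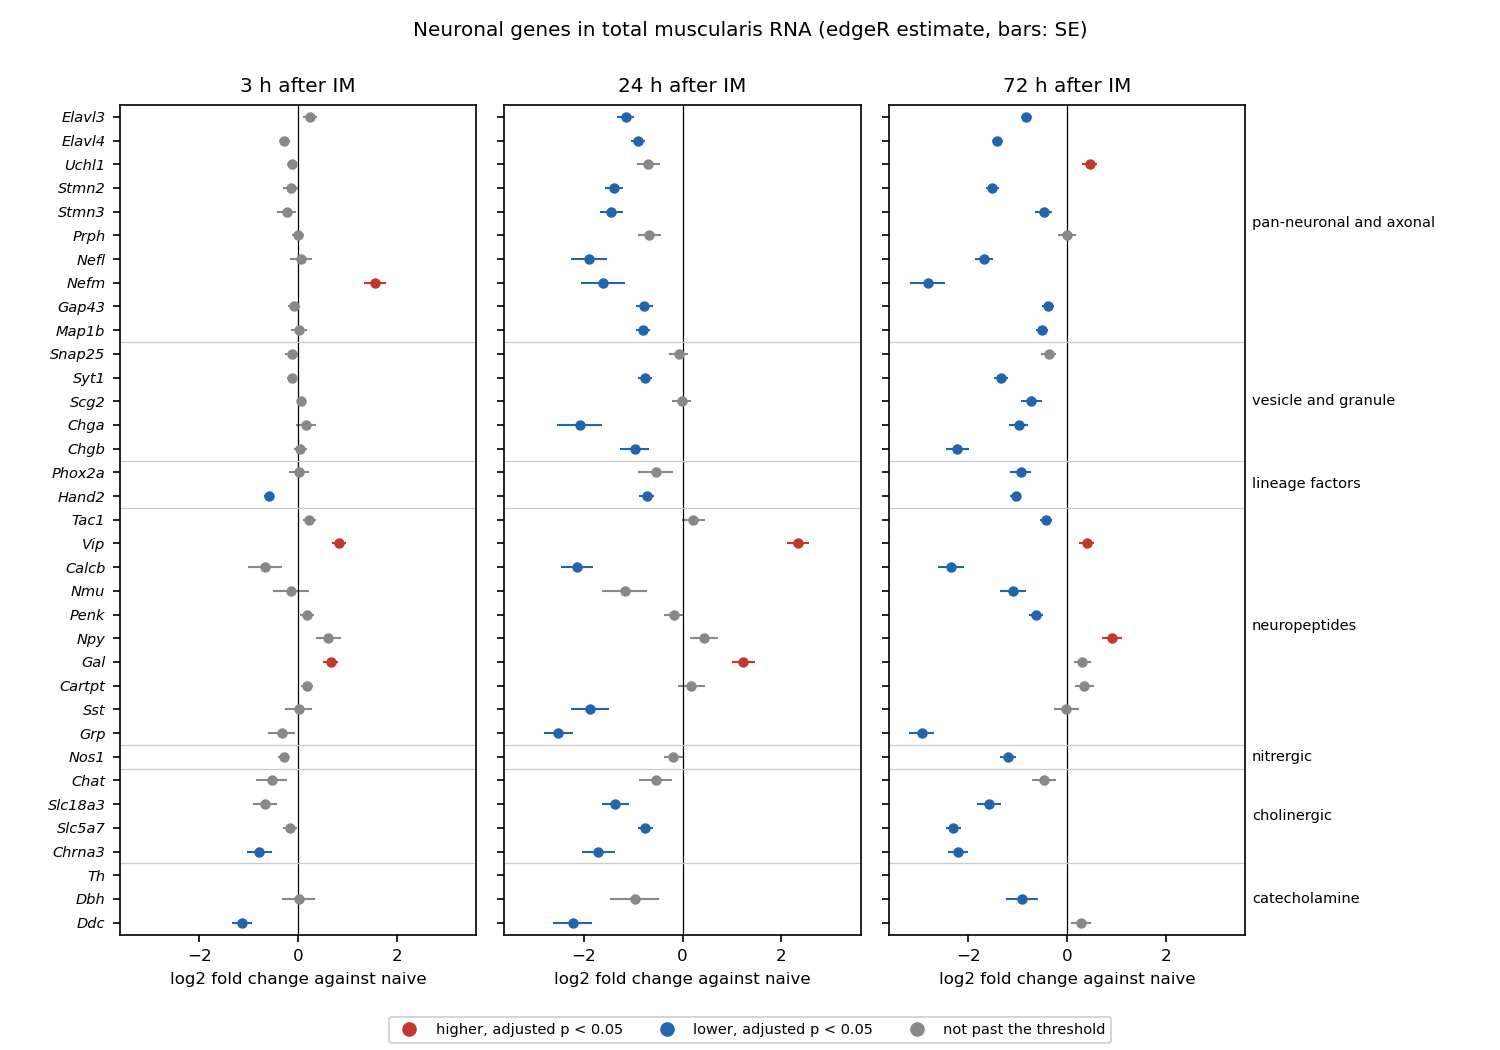
Log2 fold change of each gene in total ME RNA against naive mice at 3, 24 and 72 h after IM (x axis, points with SE bars), grouped by role (rows). Red points are higher and blue points lower at an adjusted p under 0.05, and Th has no point because it was too low to test. The blue points number 3, 19 and 24, and Vip is the gene in red in all 3 panels.

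The neuropeptide genes split. Vip encodes vasoactive intestinal peptide, the relaxant peptide of inhibitory motor neurons. It had 40.1, 44.3 and 44.4 CPM in naive ME, 59.9, 78.4 and 84 after 3 h, 235, 218, 270 and 146 after 24 h and 57.9, 53, 47.9 and 72.5 after 72 h. Every library after manipulation lay above every naive library, and the IM24h libraries lay above all others. The log2 fold change was 0.83 ± 0.14 (SE; adjusted p = 0.00142) at IM3h, a call lost with no scaling, and 2.34 ± 0.22 (adjusted p = 1.04e-04) at IM24h. At IM72h it was 0.40 ± 0.15 (adjusted p = 0.0385), a value outside the 12 largest and named after it was seen, whose sign turned to -0.19 with the reference genes and which lost its call with 1 spread for all groups, without any 1 naive library and without IM72h library 1 or 4. From 24 to 72 h Vip fell by 1.94 on the log2 scale (SE 0.21, adjusted p = 8.00e-05), within 1 Cre line as labelled.

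Gal had 226, 164 and 238 CPM in naive ME and 292, 301 and 367 at IM3h. At IM24h it had 570, 592, 481 and 336 and at IM72h 281, 226, 230 and 322 CPM. The IM3h and IM24h libraries lay above all naive libraries, whereas the IM72h libraries overlapped them. The log2 fold change was 0.66 ± 0.15 (adjusted p = 0.00726) at IM3h, a call lost with library totals, with no scaling, with the reference genes and with 1 spread for all groups. At IM24h it was 1.23 ± 0.23 (adjusted p = 0.00322), named after its value was seen as the second of the 2 genes that rose, and its call was lost with the reference genes (0.78). From 24 to 72 h Gal fell by 0.94 (SE 0.20, adjusted p = 0.00404).

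Vip and Gal were the genes that rose at both early times, and Sst, the precursor of somatostatin, was the peptide gene that fell at 24 h and overlapped the naive libraries again at 72 h. Their start regions are shown because cyclic AMP-response elements are a known feature of several peptide gene promoters. RefSeq sequences (GRCm38.p6) of 250 bases before to 50 after the start of transcription were matched for 27 of the 35 genes. The 3 below are printed 5′ to 3′ on the strand of the gene, with the letters TGACG, or TGACGTCA where the whole element is there, in capitals. Vip lies on the plus strand, at chr10:5638968-5639267. Gal lies on the minus strand, at chr19:3414495-3414794. Sst lies on the minus strand, at chr16:23890795-23891094.
Vip: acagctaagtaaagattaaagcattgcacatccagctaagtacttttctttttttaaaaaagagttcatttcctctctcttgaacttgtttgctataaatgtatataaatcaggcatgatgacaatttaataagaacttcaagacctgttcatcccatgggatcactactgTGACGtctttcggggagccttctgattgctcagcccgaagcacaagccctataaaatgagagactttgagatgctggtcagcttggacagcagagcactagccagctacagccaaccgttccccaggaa
Gal: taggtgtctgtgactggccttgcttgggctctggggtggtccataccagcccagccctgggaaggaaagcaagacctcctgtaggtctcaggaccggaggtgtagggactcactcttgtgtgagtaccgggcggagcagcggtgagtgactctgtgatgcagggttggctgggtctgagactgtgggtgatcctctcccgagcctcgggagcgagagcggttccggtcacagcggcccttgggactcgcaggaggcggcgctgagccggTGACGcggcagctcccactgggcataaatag
Sst: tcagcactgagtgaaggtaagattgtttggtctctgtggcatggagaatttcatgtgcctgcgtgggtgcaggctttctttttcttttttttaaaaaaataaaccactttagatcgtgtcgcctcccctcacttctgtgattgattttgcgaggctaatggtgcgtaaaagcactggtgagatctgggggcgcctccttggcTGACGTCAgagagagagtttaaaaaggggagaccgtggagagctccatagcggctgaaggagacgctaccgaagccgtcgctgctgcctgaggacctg
The Sst region holds TGACGTCA starting 48 bases before the start of transcription, and the Vip region holds TGACG 79 bases before it. The Gal region holds TGACG 19 bases after the start. TGACGTCA was found in the regions of 5 of the 27 genes (Cartpt, Chgb, Scg2, Sst and Th), and in those of 2.03% of all 27025 genes in the table and 1.79% of its 32851 regions. TGACG on either strand, which also lies within every TGACGTCA, was found for 16 of 27 genes, against 23% of all genes and 20.8% of regions. These are letter matches and say nothing of binding.

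Sst had 19.1, 9.67 and 22.4 CPM in naive ME, 18.4, 15.5 and 16.4 after 3 h, 2.63, 3.9, 6.91 and 5.39 after 24 h and 16.1, 14.9, 15 and 24.1 after 72 h. The IM24h libraries lay below all others, and the IM72h libraries overlapped the naive ones. Sst fell by 1.87 ± 0.39 on the log2 scale at IM24h (adjusted p = 0.00593) and was higher at IM72h than at IM24h by 1.86 ± 0.31 (adjusted p = 8.83e-04). Somatostatin is also made by enteroendocrine cells of the epithelium. The summed level of 9 enteroendocrine markers was 4.35 to 8.81 CPM in naive ME, 2.1 to 4.24 at IM24h and 4.7 to 11.3 at IM72h, with Neurog3 at 0 throughout, and that of 7 epithelial markers was 143 to 402, 74.9 to 173 and 288 to 619. At IM3h the enteroendocrine sum was 3.65 to 19.6 and the epithelial sum 216 to 1292 CPM, ranges that overlapped naive, and by edgeR 0 of the 7 epithelial and 0 of the 3 enteroendocrine markers tested passed there. The part of these cells in the change of Sst was not tested.

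Calcb and Grp fell at both later times. Calcb encodes the beta form of calcitonin gene-related peptide, a mark of enteric sensory neurons, and had 22.3, 13.3 and 26.2 CPM in naive ME, 3.86, 3.7, 4.73 and 6.54 at IM24h and 2.94, 4.51, 3.62 and 5.58 at IM72h. It fell by 2.14 ± 0.32 at IM24h (adjusted p = 9.88e-04) and by 2.34 ± 0.26 at IM72h (adjusted p = 3.02e-05). At IM3h its libraries, 9.42, 8.54 and 20.4 CPM, overlapped the naive ones. Grp, the precursor of gastrin-releasing peptide, had 14, 12.5 and 14.4 CPM in naive ME, 6.33, 10.8 and 14.6 after 3 h, 2.35, 1.9, 2.46 and 2.87 after 24 h and 1.09, 1.73, 1.96 and 2.4 after 72 h. It was the gene that fell furthest at both later times, by 2.51 ± 0.30 (adjusted p = 3.47e-04) and by 2.94 ± 0.25 (adjusted p = 4.75e-06). Calcb and Grp kept their calls at both times under each of the 16 alternatives.

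Nmu, Penk, Tac1 and Npy passed the test at 72 h, at smaller sizes. Nmu (neuromedin U) had 20.8, 15.9 and 36.7 CPM in naive ME, 13.8, 17.8 and 34.2 after 3 h, 21.3, 9.29, 5.09 and 8.14 after 24 h and 8.98, 15.2, 10 and 13.3 after 72 h, with IM72h libraries that all lay below the lowest naive library. Its call at 72 h was lost with library totals (-0.52), with no scaling (-0.18) and with 1 spread for all groups (-1.05). Penk, the enkephalin precursor, had 50.3, 36.7 and 51.1 CPM in naive ME, 49, 48.9 and 53.9 after 3 h, 52.9, 31.4, 36.7 and 43.8 after 24 h and 30, 33.1, 31.5 and 27.6 after 72 h, and was lower at 72 h in the main scaling but at 0.28 with no scaling. Tac1, the precursor of substance P of excitatory neurons, had 90.3, 72.4 and 89.1 CPM in naive ME, 82.7, 92.2 and 112 at IM3h and 127, 108, 99.1 and 59.6 at IM24h. At IM72h it had 59.7, 59.4, 72.4 and 64.8 CPM and was called lower, with the sign turned by library totals (0.17) and no scaling (0.51). The call was kept in 9 of 16 alternatives. Npy, the precursor of neuropeptide Y, went the other way, from 6.64, 6.02 and 6.53 CPM in naive ME to 11.7, 11.1, 10.2 and 16.3 at IM72h, with 7.74, 8.84 and 11.9 at IM3h and 10.6, 7.99, 8.18 and 8.03 at IM24h. All 4 IM72h libraries of Npy lay above the naive ones, with a log2 fold change of 0.91 ± 0.21 (adjusted p = 0.00331), named after it was seen and lost only with the reference genes (0.32) among 16 alternatives. Cartpt (CART peptide) passed in no comparison and ranged from 18.6 to 56.1 CPM over the 14 ME libraries.

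**Figure D2:**
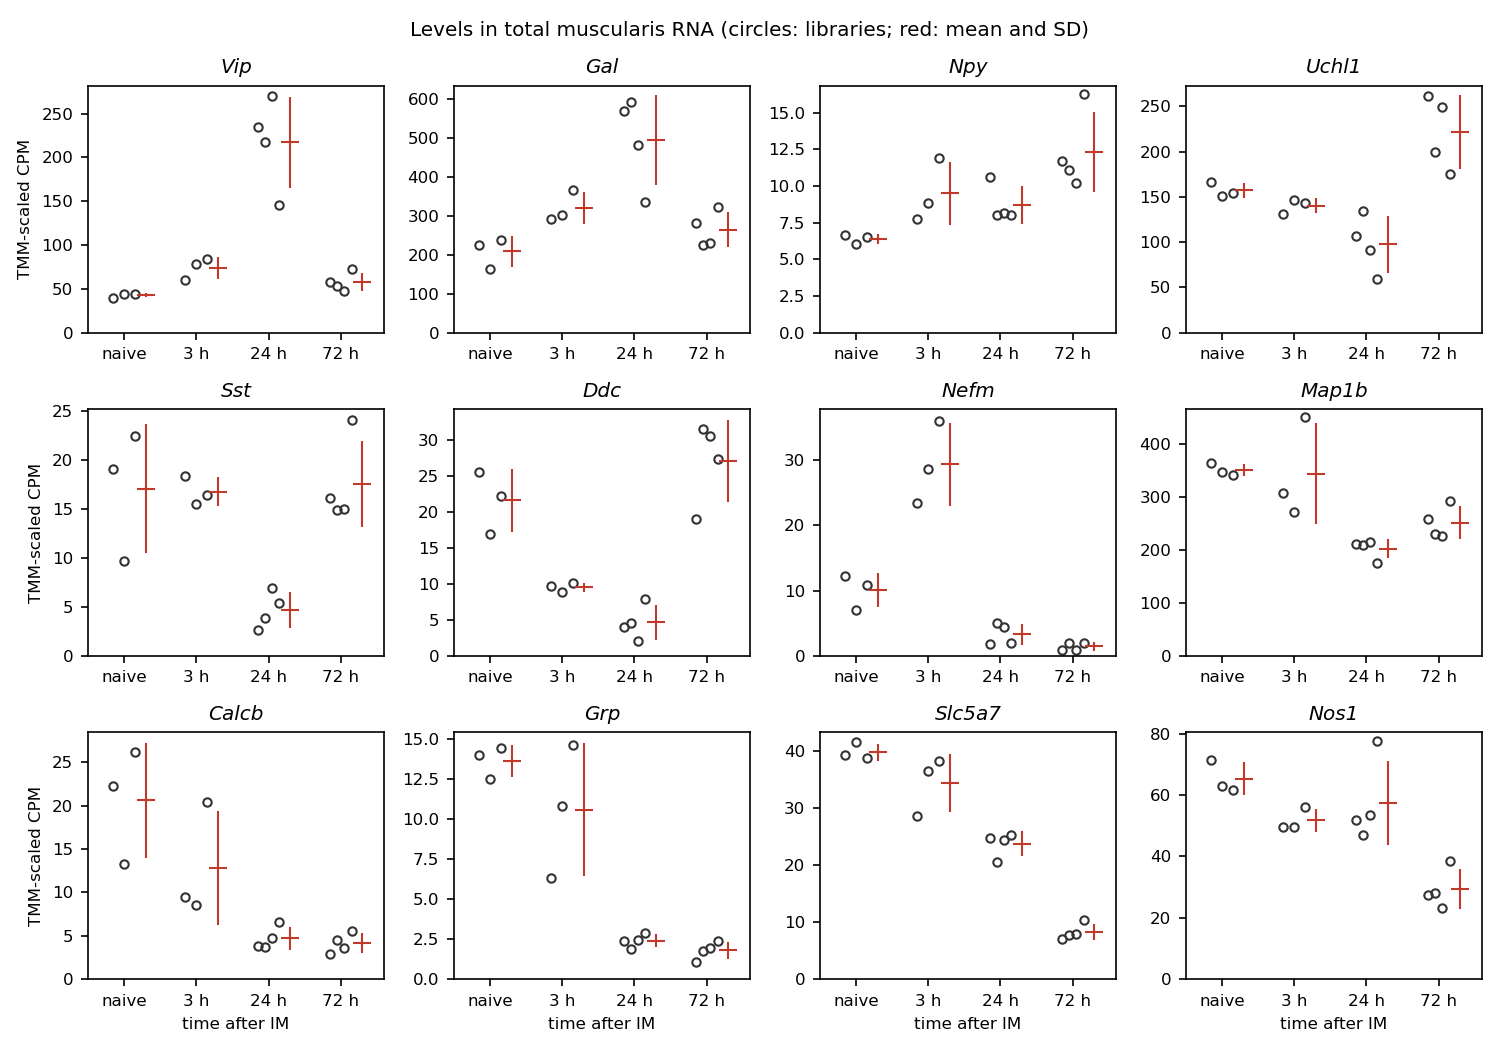
Levels of 12 of the genes in each total ME library (circles, CPM after TMM scaling, y axis from 0) by time after IM (x axis), with the group mean and SD in red (SD bars end at 0 where they would pass it). Vip and Gal peak at 24 h, Sst and Ddc are lowest at 24 h, and Calcb and Grp stay low at 24 and 72 h.

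The make-up of the peptide mRNAs, each gene's share of the counts of the 10 peptide genes in a library, does not depend on library scaling. It was looked at after the levels were seen. Gal took 42% ± 1.6 (SD, n = 3) of peptide counts in naive ME, 49.5% ± 1.12 (n = 3) at IM3h, 53.5% ± 4.14 (n = 4) at IM24h and 52% ± 2.69 (n = 4) at IM72h. Vip took 8.82% ± 1.78, 11.4% ± 1.17, 23.6% ± 3.17 and 11.4% ± 0.58 in the same order. Grp had a share of 2.77% ± 0.259 in naive ME and 0.276% ± 0.11 at IM24h, and Calcb one of 4.07% ± 0.723 and 0.555% ± 0.298, with no overlap of libraries. The share of Tac1 was 17% ± 0.994 in naive ME and 10.5% ± 1.16 at IM24h. The shares of a library sum to a fixed whole, so a rise of Gal and Vip alone lowers the others. By edgeR the level of Tac1 itself did not pass at IM24h. The exact two-sided permutation test over samples gave p = 0.0571 for Vip, Gal, Grp, Calcb, Tac1, Sst, Nmu and Penk at IM24h against naive, the smallest that 4 against 3 allows, and 0.108 after Benjamini-Hochberg adjustment over 70 tests, so none of these shares passed.

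**Figure D3:**
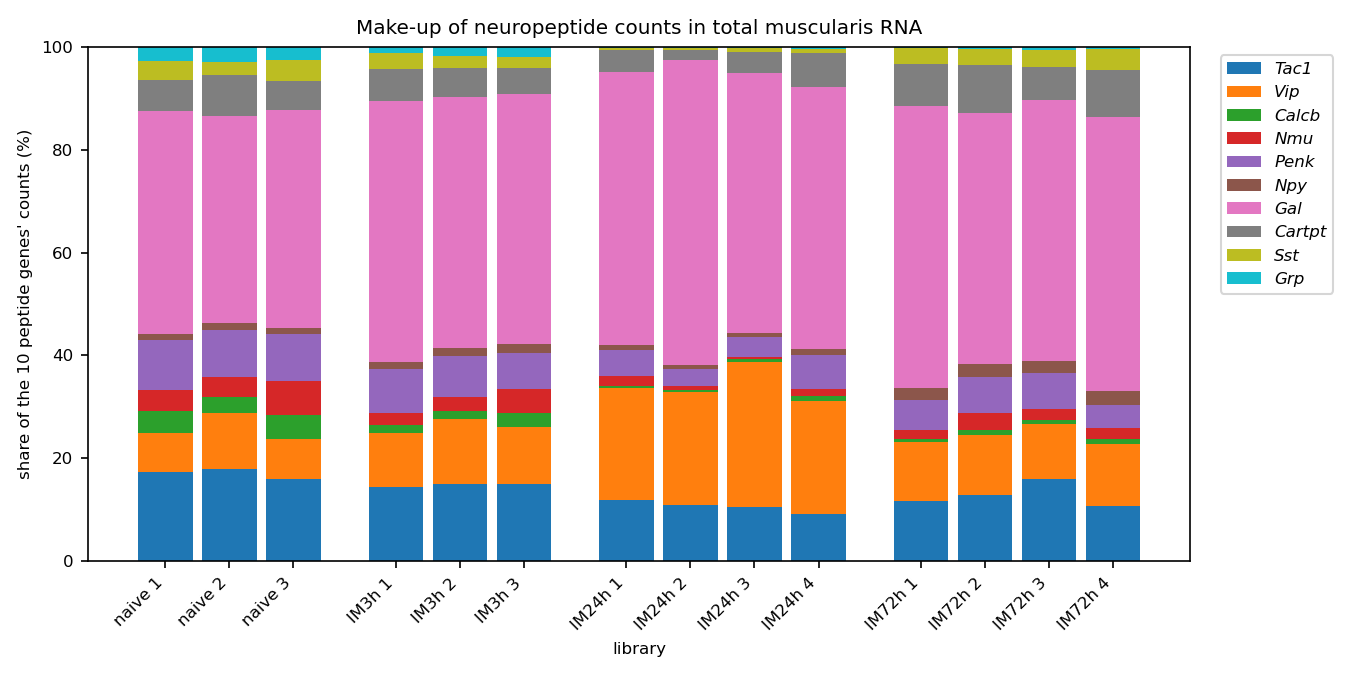
Share of each neuropeptide gene (colours) in the counts of the 10 peptide genes (y axis, percent) in each total ME library (x axis). The Vip band widens from 8.82% on average in naive to 23.6% at IM24h and is 11.4% at IM72h, while the Grp and Calcb bands nearly close at IM24h.

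Of the 4 genes of acetylcholine transmission 3 fell at IM24h and at IM72h, beside 13.4% and 28.3% of all genes, and those of choline uptake and of the nicotinic receptor fell furthest by 72 h. At IM24h the call of Slc5a7 was lost with library totals (log2 fold change -0.10), with no scaling (-0.22) and with totals without AY036118 (-0.43), and that of Slc18a3 with library totals and with no scaling. Slc5a7 had 39.2, 41.5 and 38.7 CPM in naive ME and 28.6, 36.4 and 38.2 at IM3h. It had 24.8, 20.6, 24.3 and 25.3 CPM at IM24h and 6.96, 7.74, 7.99 and 10.3 at IM72h, so that neither later group overlapped the one before it. It fell by 2.30 ± 0.15 at IM72h against naive (adjusted p = 9.68e-07) and by 1.56 ± 0.18 from 24 to 72 h (adjusted p = 1.21e-04). Chrna3, Slc18a3 and Slc5a7 had all IM3h libraries below all naive ones, as did 9 of the 34 genes and 24.8% of all genes, and of the 3 Chrna3 passed the test there. At IM3h it had 6.75, 9.72 and 11.6 CPM against 19.1, 12.2 and 18.1 in naive ME (log2 fold change -0.78 ± 0.25, adjusted p = 0.0343, lost under 6 of 15 alternatives). It had 6.21, 3.9, 3.18 and 7.11 CPM at IM24h and 3.36, 3.46, 3.92 and 3.89 at IM72h, a fall of 1.70 ± 0.34 (adjusted p = 0.00467) and of 2.21 ± 0.20 (adjusted p = 6.78e-06). Slc18a3, the vesicular acetylcholine transporter, had 16.5, 15.9 and 16.8 CPM in naive ME, 6.33, 13.3 and 10.5 after 3 h, 5.64, 4.5, 7.91 and 7.57 after 24 h and 4.28, 4.88, 4.75 and 8.57 after 72 h. Its fall was 1.36 ± 0.27 at IM24h (adjusted p = 0.00444) and 1.57 ± 0.24 at IM72h (adjusted p = 2.28e-04). Chat, the enzyme that makes acetylcholine, was lower in mean but not past the threshold at any time, with 8.81, 6.66 and 9.31 CPM in naive ME and 4.11, 5.86, 7.01 and 7.72 at IM72h. Slc18a3 (chr14:32462438-32464850, mm10) lies inside Chat (chr14:32408203-32465989) on the same strand, so the split of counts between them is uncertain.

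Nos1 of the inhibitory neurons did not pass at 3 or 24 h and was lower at 72 h. It had 49.7, 49.5 and 55.9 CPM after 3 h, 51.7, 47.1, 53.6 and 77.6 after 24 h and 27.3, 28.1, 23 and 38.4 after 72 h. The IM24h libraries overlapped the naive ones, and every IM72h library lay below both groups. Nos1 fell by 1.19 ± 0.16 at IM72h against naive (adjusted p = 1.11e-04) and by 1.01 ± 0.20 from 24 to 72 h (adjusted p = 0.00274). Both calls were lost with no scaling.

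Of the catecholamine genes, Ddc fell by 24 h and rose again by 72 h. It had 9.71, 8.84 and 10.1 CPM at IM3h and 4.04, 4.6, 2.09 and 7.91 at IM24h, in each case below all naive libraries. At IM72h it had 19, 31.5, 30.5 and 27.3 CPM and overlapped the naive libraries. It fell by 1.13 ± 0.20 at IM3h (adjusted p = 0.00171) and by 2.22 ± 0.39 at IM24h (adjusted p = 0.0024), and was higher at IM72h than at IM24h by 2.51 ± 0.34 (adjusted p = 2.94e-04), the largest rise of the 34 genes between these times. Ddc is also expressed outside neurons, among others in epithelium, whose summed markers are given beside Sst. Of 7 epithelial markers 0 passed at 3 h, 3 were lower at 24 h, and 5 were higher at 72 h than at 24 h, and their part in the values of Ddc was not tested. Dbh had 4.08, 4.42 and 6.47 CPM after 3 h, 3.39, 3.6, 1.18 and 2.29 after 24 h and 1.59, 3.15, 2.56 and 3.63 after 72 h, where it was called lower, a call kept in 7 of 16 alternatives and with the sign turned to 0.12 with no scaling.

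Of the 10 axonal and pan-neuronal genes 8 fell at 24 h, beside 13.4% of all genes, and Uchl1 and Prph did not pass by edgeR, though DESeq2 called both lower. Of the 8, Elavl4, Gap43, Map1b and Nefm lost their call with library totals. The neurofilament gene Nefm was the one that rose at 3 h. It had 12.2, 7.09 and 10.9 CPM in naive ME and 23.4, 28.6 and 36 at IM3h, where every library lay above the naive ones (log2 fold change 1.56 ± 0.22, adjusted p = 5.37e-04). It had 1.88, 5, 4.36 and 1.95 CPM at IM24h and 0.839, 2.03, 0.904 and 2.01 at IM72h, below naive by 1.61 ± 0.44 (adjusted p = 0.02) and by 2.82 ± 0.35 (adjusted p = 5.44e-05) on the log2 scale. Nefl, the light neurofilament, had 14.5, 12.5 and 17.5 CPM in naive ME and 12.7, 13.1 and 19.4 at IM3h. It had 6.02, 2.1, 3.91 and 4.01 CPM at IM24h and 4.7, 4.73, 5.05 and 4.54 at IM72h, with a fall of 1.89 ± 0.36 (adjusted p = 0.00355) and of 1.68 ± 0.18 (adjusted p = 2.08e-05). The gene models of Nefl and Nefm overlap on opposite strands, and whether counting used strand is not given in the sources used here. The rise of Nefm at 3 h held in each of 15 alternatives.

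Stmn2 and Stmn3, stathmins that regulate microtubules in growing axons, both fell at 24 h. Stmn2 had 143, 109 and 133 CPM in naive ME, 93.5, 107 and 136 after 3 h, 51, 42.8, 43.4 and 61 after 24 h and 41.6, 43, 50.5 and 49.1 after 72 h, lower by 1.38 ± 0.18 (adjusted p = 4.94e-04) and 1.51 ± 0.13 (adjusted p = 4.41e-06). Stmn3 had 39.8, 25.1 and 34.8 CPM in naive ME, 22.2, 32.4 and 28.4 after 3 h, 12.9, 15.5, 9.91 and 10.9 after 24 h and 25.3, 22.8, 29.2 and 21.4 after 72 h. It fell by 1.44 ± 0.23 at 24 h (adjusted p = 0.00152) and was higher at 72 h than at 24 h by 0.97 ± 0.19 (adjusted p = 0.00245), where Stmn2 did not pass. The difference between the pair was not tested. Against naive, Stmn3 was called lower at 72 h too, but at 0.11 with library totals and 0.43 with no scaling, and the call was kept in 7 of 16 alternatives. Elavl3 and Elavl4 encode neuronal RNA-binding proteins, the Hu antigens used to stain enteric neurons. Elavl3 had 39.7, 44.3 and 38.2 CPM in naive ME, 37.7, 51.4 and 50.1 after 3 h, 17.8, 20.2, 16.1 and 19.5 after 24 h and 23.2, 23.3, 26.1 and 21.5 after 72 h. Elavl4 had 129, 142 and 132 CPM in naive ME, 95.1, 107 and 118 after 3 h, 82.1, 60, 67.6 and 77.2 after 24 h and 53.1, 44.5, 52.5 and 56.4 after 72 h. Both were called lower at both times, Elavl4 by 1.41 ± 0.11 at 72 h (adjusted p = 3.58e-06) and by 0.51 ± 0.14 from 24 to 72 h (adjusted p = 0.0164), while Elavl3 turned to 0.16 at 72 h with no scaling.

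Uchl1, an abundant neuronal ubiquitin hydrolase also known as PGP9.5, ended above naive. It had 167, 151 and 154 CPM in naive ME, 131, 147 and 143 after 3 h, 107, 134, 91 and 58.8 after 24 h and 262, 200, 249 and 175 after 72 h. All IM72h libraries lay above all naive and IM24h libraries. The log2 fold change at IM72h was 0.46 ± 0.15 against naive (adjusted p = 0.0206, named after it was seen, -0.17 with the reference genes and lost with 1 spread for all groups and without naive library 2, naive library 3 or IM72h library 3) and 1.14 ± 0.24 against IM24h (adjusted p = 0.00337). Map1b had 306, 272 and 451 CPM after 3 h, 210, 208, 214 and 175 after 24 h and 257, 229, 226 and 292 after 72 h, and Gap43, a growth cone protein, had 91.2, 66.8 and 74.7 CPM in naive ME, 69.9, 72.5 and 71.4 after 3 h, 53.2, 40.7, 48.6 and 40.1 after 24 h and 60.9, 59.3, 62.3 and 59.2 after 72 h. Both genes were called lower at 24 and 72 h, but at 72 h their sign turned with library totals (0.09 and 0.20) and with no scaling (0.46 and 0.53). Prph, the peripheral intermediate filament, did not pass by edgeR at any time in ME, although all its IM24h libraries (44.9, 43.2, 26.1 and 24 CPM) lay below all naive ones (53.1, 60 and 52 CPM). DESeq2 called it at IM24h against naive and between 24 and 72 h.

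Among vesicle and granule genes, Chga and Chgb, granins of dense-core vesicles, were lower at both later times. Chga (chromogranin A) had 15.6, 10.3 and 13.7 CPM in naive ME, 14.2, 15.2 and 13.8 after 3 h, 2.63, 1.1, 5.46 and 3.32 after 24 h and 6.71, 6.91, 8.29 and 5.71 after 72 h, and fell by 2.08 ± 0.46 at 24 h (adjusted p = 0.0077). The call of Chga at 72 h was lost with library totals and with no scaling. Chgb (chromogranin B) had 31.1, 28.4 and 30 CPM in naive ME, 26.4, 34.8 and 28.4 after 3 h, 17.6, 7.09, 18.5 and 17.8 after 24 h and 4.95, 4.51, 6.93 and 9.54 after 72 h. Its call at 24 h was lost in 8 of 16 alternatives, among them leaving out any 1 naive library. It fell by 2.22 ± 0.23 at 72 h (adjusted p = 1.75e-05) and by 1.26 ± 0.34 from 24 to 72 h (adjusted p = 0.0137). Chga is made by enteroendocrine cells as well. Scg2 had 171, 166 and 172 CPM in naive ME, 154, 176 and 188 at IM3h and 215, 176, 163 and 114 at IM24h, and was called lower at 72 h with 107, 123, 133 and 58 CPM, although at 0.21 with no scaling. Syt1 had 111, 114 and 112 CPM in naive ME, 94, 103 and 103 after 3 h, 72.9, 68.8, 63.9 and 59.3 after 24 h and 44.4, 45.4, 55.8 and 36.4 after 72 h, lower by 1.33 ± 0.14 at 72 h (adjusted p = 1.74e-05). Snap25, a fusion protein of the presynaptic membrane, had 46.8, 39.8 and 48.2 CPM in naive ME and 38.4, 44.9 and 36.3 at IM3h. It had 54.8, 46.4, 37.7 and 31.4 CPM at IM24h and 39.2, 35.6, 40.9 and 27 at IM72h and passed in no ME comparison.

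Hand2 and Phox2a were both called lower at 72 h, with the sign of Phox2a at 0.02 with no scaling. The calls of Hand2 at 3 and 72 h were also lost with no scaling. Hand2 had 138, 148 and 151 CPM at IM3h, below all naive libraries (log2 fold change -0.58 ± 0.10, adjusted p = 0.002). It had 154, 132, 115 and 149 CPM at IM24h and 108, 122, 111 and 107 at IM72h. Phox2a, a homeodomain factor of autonomic neurons, had 12.3, 10.3 and 11.1 CPM in naive ME, 12, 10.8 and 10.5 after 3 h, 4.8, 5.19, 10.5 and 10.5 after 24 h and 4.2, 5.63, 7.08 and 7.01 after 72 h.

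Between 24 and 72 h in ME, 5 of the 34 genes rose and 8 fell, beside 18.6% and 19.9% of all 16281 genes tested. The 5 that rose were Ddc, Sst, Uchl1, Stmn3 and Gap43, and the 8 that fell were Vip, Slc5a7, Chgb, Nos1, Gal, Tac1, Syt1 and Elavl4. Of these, Tac1 (log2 fold change -0.66 ± 0.21, adjusted p = 0.0281) lost its call in 8 of 17 alternatives, Gap43 in 10 of 17 and Elavl4 in 4 of 17 (-0.05 with no scaling). Smooth muscle markers were higher at 72 h than at 24 h in 4 of 8 cases and epithelial markers in 5 of 7.

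A wider set of 100 other genes with a role in neurons (structure and RNA binding, ion channels, receptors, vesicle proteins, lineage factors, granule processing, and transmitter synthesis and uptake) was counted in the same way in ME. Not all are confined to neurons, and Etv1 is also among the markers of interstitial cells of Cajal used above. The part of other cells in these counts was not tested. At IM3h 4 of 84 tested were higher and 20 lower, beside 19.3% and 13.4% of all genes (median log2 fold change -0.16, all genes 0.00). At IM24h 1 of 86 was higher and 43 lower, beside 15.6% and 13.4% (median -1.01, all genes 0.02). At IM72h 5 of 86 were higher and 60 lower, beside 29.3% and 28.3% (median -0.87, all genes 0.02). The gene that was higher at IM24h was Vgf, a neuropeptide precursor (1.95 ± 0.42, adjusted p = 0.00642), which was also higher at IM3h (2.75 ± 0.30, adjusted p = 9.00e-05). The receptor gene with the largest fall at 72 h was Chrm2, a muscarinic receptor that smooth muscle also carries (-3.09 ± 0.13, adjusted p = 1.75e-07). Rbfox3, the neuronal nuclear antigen NeuN, was lower at 24 h (-2.02 ± 0.46, adjusted p = 0.00895) and 72 h (-2.05 ± 0.24, adjusted p = 3.34e-05).

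The RiboTag pulldown was built to recover mRNA of Sox10-expressing cells, chiefly glia. In naive mice 9 of 10 glial markers were higher in the pulldown than in ME (median log2 fold change 3.13). Genes of the list were nevertheless present, and 9 of the 34 tested were higher in the pulldown and 1 lower, beside 13.4% and 12.7% of all 14769 genes. Whether their mRNA came from neurons or from other cells was not tested. The levels in this paragraph are scaled over both fractions together. Map1b had 378, 357 and 360 CPM in ME and 1351, 1759 and 902 in the pulldown (1.87 ± 0.24, adjusted p = 9.73e-04). Prph had 55.3, 61.8 and 54.8 CPM in ME and 284, 261 and 109 in the pulldown (1.93 ± 0.32, adjusted p = 0.00338). Nos1 had 74.4, 64.9 and 65.1 CPM in ME and 244, 335 and 141 in the pulldown (1.82 ± 0.29, adjusted p = 0.00261). For these 3 genes every pulldown library lay above every ME library, as it did for 9 of the 34 genes and for 23% of all genes. Uchl1 was higher by 1.52 ± 0.21 (adjusted p = 0.00123), with 563, 506 and 340 CPM in the pulldown against 174, 155 and 163. Elavl3 was higher by 1.33 ± 0.20 (adjusted p = 0.00217), and Chga by 1.83 ± 0.39 (adjusted p = 0.00933). Nefm, Phox2a and Stmn3 were also called higher, at 1.48 ± 0.47, 1.33 ± 0.39 and 1.15 ± 0.34 (adjusted p = 0.0456, 0.0358 and 0.0368), and each lost its call in 7 or more of 14 alternatives.

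Peptide and cholinergic genes were not among those 9. The median log2 fold change of the 10 peptide genes was -0.47 and that of the 4 cholinergic genes -0.04, against 1.24 for the 10 axonal and pan-neuronal genes. Grp was lower in the pulldown, with 4.8, 6.6 and 2.51 CPM against 14.6, 12.9 and 15.2 in ME (-1.61 ± 0.44, adjusted p = 0.0258), a call lost in 7 of 14 alternatives, among them leaving out any 1 ME naive library. Gal had 61.5, 183 and 84.1 against 235, 169 and 251 CPM with overlapping libraries and an adjusted p of 0.0778. Naive pulldown library 2 was the highest of its group for 28 of the 35 genes (80%), against 34% of all genes. Without that library 6 of the genes were called higher and 8 lower, so the count of lower genes rests on it, and without ME naive library 2 it was 5 higher and 0 lower. With 1 spread for all groups 1 gene was called higher and 0 lower.

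**Figure D4:**
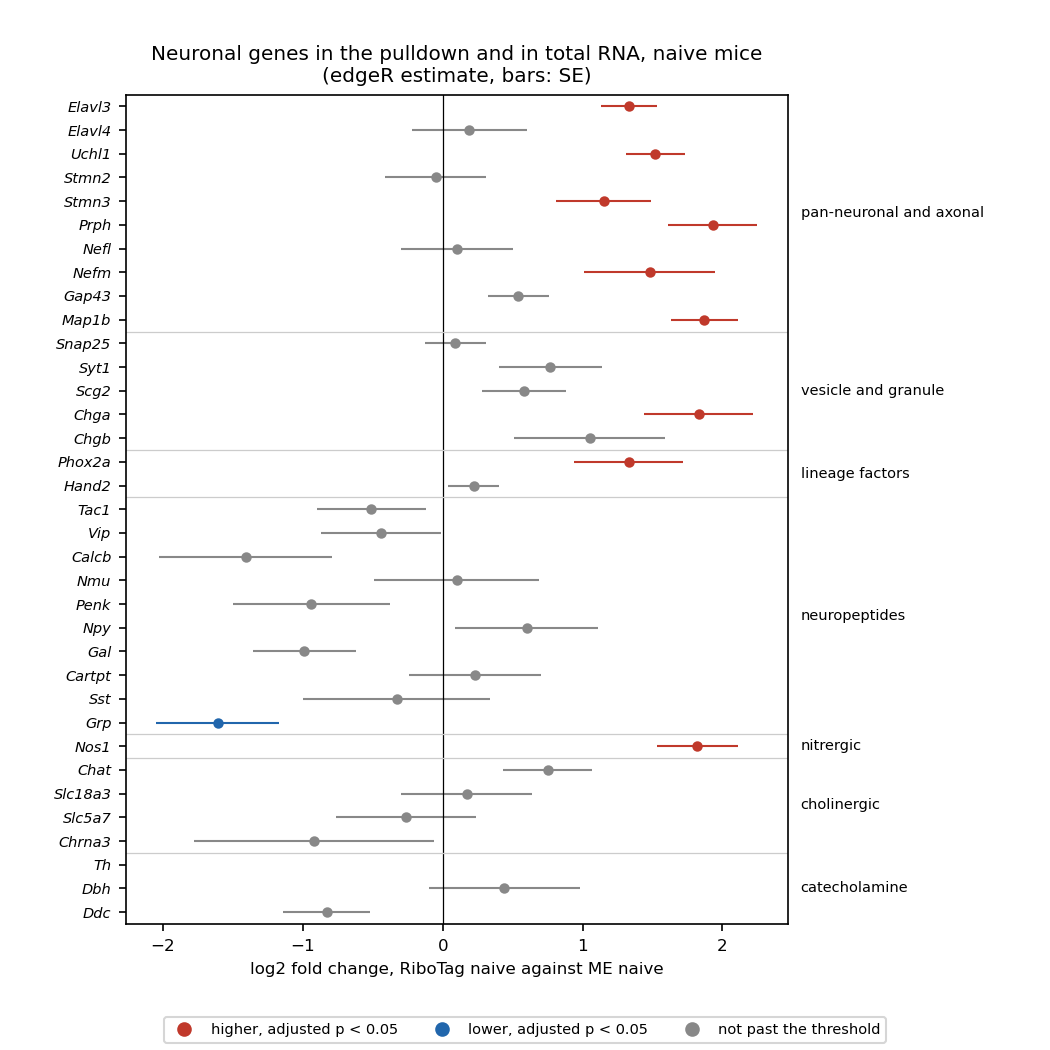
Log2 fold change of each gene in the naive RiboTag pulldown against naive total ME RNA (x axis, points with SE bars), grouped by role (rows), with red for higher and blue for lower at an adjusted p under 0.05. The 9 red points are axonal, granule, lineage and nitrergic genes, and the blue point is Grp.

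In the pulldown after manipulation, few of the neuronal genes passed. Against naive, 1 of 34 rose at 3 h, Snap25, and 0 fell, beside 8.86% and 4.44% of all 16053 genes tested. By edgeR 7 genes had an unadjusted p under 0.05 (26.8% of all genes did), and DESeq2 called 4 higher and 0 lower. The median log2 fold change was 0.25, against -0.04 for all genes. Snap25 had 38.7, 45.4 and 27.7 CPM in naive and 151, 75, 56.7 and 74.9 at IM3h, with no overlap (log2 fold change 1.32 ± 0.35, adjusted p = 0.0274). The call was lost in 9 of 16 alternatives, among them leaving out IM3h library 1 or any 1 naive library. Gal had 45.4, 138 and 63.2 CPM in naive and 740, 245, 134 and 90.6 at IM3h, and Vip had 14.5, 45.5 and 13.8 and 235, 74.1, 38.3 and 21.1. Neither passed (adjusted p = 0.07 and 0.102), and in each the top value belonged to library 1 of IM3h, which was the highest of its group for 25 of the 35 genes (71.4%, against 26.8% of all genes). Leaving out both that library and naive library 2, an alternative added after the values were seen, gave 2 called higher.

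At IM24h none of the 34 genes passed in the pulldown by edgeR, beside 0.366% higher and 0.131% lower of all 15304 genes. At an unadjusted p under 0.05 there were 4 (Gap43 and Vip higher, Phox2a and Nmu lower), beside 13.2% of all genes, and DESeq2 called 2, Vip higher and Nmu lower. Vip had 74.4, 80.5, 69.2 and 192 CPM at IM24h, above all 3 naive libraries (2.12 ± 0.58, adjusted p = 0.121). Gap43 had 79.6, 115 and 69.2 CPM in naive and 145, 126, 143 and 340 at IM24h (1.13 ± 0.44, adjusted p = 0.258). Without libraries 2 and 3 of IM24h, those richest in AY036118, 0 genes were called in either direction.

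At IM72h 6 of the 33 genes tested were called lower and 0 higher, beside 15.1% and 1.05% of all 13572 genes, and 0 were called without a filter on low counts and 3 without naive library 1 or 3. At an unadjusted p under 0.05 there were 9, beside 22.6% of all genes, and DESeq2 called 7 lower and 0 higher. Of the 6, 5 had no count in any of the 4 IM72h libraries, so they passed the filter on low counts only through the naive group, and their calls are a description and no support for a fall. Of all genes, 22155 had a count in at least 1 naive pulldown library and 17422 in at least 1 of IM72h. Counting 3 counts per library as the limit that a count of 0 allows (1.86 CPM on average), Phox2a was at least 11.9-fold lower than its naive mean of 22.1 CPM (20.2, 34.6 and 11.4 by library) and at least 6.15-fold lower than its lowest naive library. Nmu was at least 11.1-fold lower than its naive mean of 20.5 CPM (7.96, 42.4 and 11.3 by library), 4.28-fold against the lowest naive library and 5.19-fold against the mean without naive library 2. Slc18a3 was at least 7.73-fold lower than its naive mean of 14.4 CPM (11, 26 and 6.13 by library), 3.3-fold against the lowest library and 4.61-fold without library 2. For Dbh and Grp the bound against the naive mean was 2.92-fold and 1.86-fold, and against the lowest library 1.39-fold for Dbh and hardly above the limit itself for Grp. Nos1 still had counts, 0.473, 12.7, 0.955 and 6.74 CPM against 180, 251 and 106 in naive, from 1 to 29 counts a library (-5.09 ± 1.08, adjusted p = 0.0139), a call lost with no filter and without naive library 2. Map1b had 653, 472, 489 and 623 CPM at IM72h against 996, 1318 and 678 in naive, with all libraries below the naive ones, as for 28% of all genes, and did not pass (adjusted p = 0.205). The IM72h libraries held 663808 to 1619377 counts outside AY036118, and the summed level of the 10 glial markers was 238 to 1513 CPM in them against 2196 to 2631 in the naive pulldown, with 3 of 10 called lower and Sox2 at 0 in all 4. That of the 8 macrophage markers was 269 to 471 CPM against 93.4 to 173. Their part in the values of the neuronal genes was not tested.

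**Figure D5:**
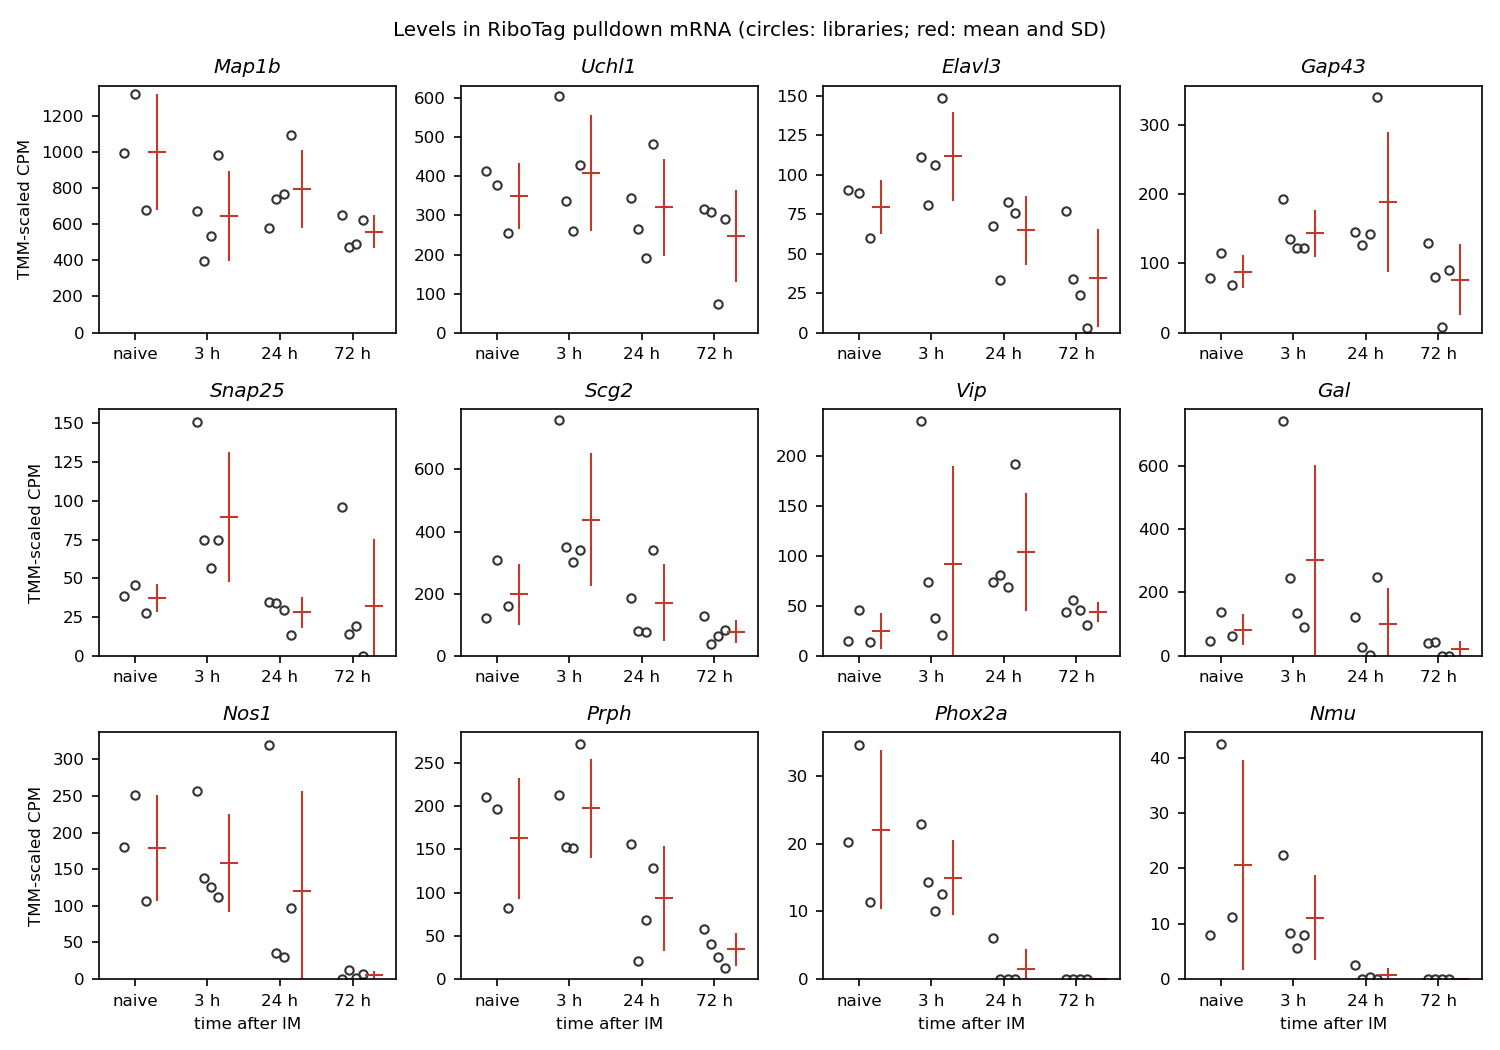
Levels of 12 of the genes in each RiboTag library (circles, CPM after TMM scaling, y axis from 0) by time after IM (x axis), with the group mean and SD in red (SD bars end at 0 where they would pass it). The spread within groups is wide, library 1 is the top circle at 3 h for Scg2, Vip and Gal, and Phox2a and Nmu are at 0 in all 4 libraries at 72 h.

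Whether the pulldown changed differently from ME was tested as the interaction of fraction and time. By the labels, the ME side of the tests at IM24h and IM72h also holds a change of Cre line. At IM3h the fractions themselves differ in line. At IM3h 0 of 34 genes were called by edgeR (5 at an unadjusted p under 0.05, beside 14.7% of all genes, and 1 by DESeq2), beside 0.959% higher and 0.698% lower of all 17617 genes. At IM24h 0 were called (3 at an unadjusted p under 0.05, beside 13.5% of all genes, and 1 by DESeq2), beside 0.274% and 0.263% of 17508, and 5 were called without pulldown library 1 of IM24h. At IM72h edgeR called 8, each with a lower value of the change in the pulldown, beside 21.1% lower and 2.15% higher of 16527 genes. DESeq2 called 10 there, 7 lower and 3 higher, the higher ones being Nefl, Nefm and Syt1. Phox2a, Nmu, Slc18a3, Dbh and Grp, at 0 in the pulldown, were 5 of these, and Sst, with 1 count, was another, so that these 6 were in the test only through the groups where they are expressed and support no difference. Nos1 and Prph were the others. Without ME naive library 2 or 3 there were 5. For Nos1 the interaction was -4.06 ± 1.12 (adjusted p = 0.0164) and for Prph -2.48 ± 0.75 (adjusted p = 0.0277), beside a median of -0.98 over all genes. The call of Nos1 was lost without ME naive library 2 or 3 (2 of 19 alternatives). That of Prph was lost in 7 of 19, by leaving out any 1 ME naive library, ME IM72h library 2 or 3, or pulldown naive library 1 or 2.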

How the data were processed

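The authors sequenced the 3′ ends of transcripts as single reads (QuantSeq) and, per the methods and the labels, trimmed and aligned them to mm10 with STAR and counted them in Partek Flow against Ensembl. Whether counting used strand is not given in the sources used here. The deposited values are estimated counts, by gene for ME and by transcript for ME and RiboTag, and were rounded to whole numbers here after transcripts were summed by gene symbol. The tables held 29 of the 30 labelled samples (3 of 4 naive RiboTag), with libraries named by group and by codes that match no sample label, so libraries are numbered by name order and each table's own group entry was used. The naive RiboTag counts were the same in all 3 RiboTag tables (largest difference 0). The gene table lists no gene with a total under 10 counts. Tables of the authors' own comparisons, which hold group means, ratios, fold changes, p-values and false discovery rates, were not used.

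Each comparison was fitted with edgeR 4.0.16 (R 4.3.3, limma 3.58.1) on the libraries of its groups: TMM scaling, filterByExpr, the quasi-likelihood test, two-sided, and Benjamini-Hochberg adjustment over all genes tested, with a call at an adjusted p under 0.05. The interaction of fraction and time was tested in the same way. ME fits used the gene table. The scripts were tested on simulated data. The study describes the replicates as separate mice, while the library names tie no library to an animal. Single values were compared with exact permutation tests (scipy 1.17.1, numpy 2.4.6, pandas 2.3.3, Python 3.11.15). Alternatives were DESeq2 1.42.0, its size factors in edgeR, library totals, no scaling, scaling by Actb, Hsp90ab1 and Rplp1, no filter, the transcript table for ME, 1 spread for all groups, library totals without AY036118 and leaving out each library.

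The 35 genes and the other lists were chosen with earlier results of these data known. In each comparison fold change, SE and adjusted p are given for at most 12 called genes, by size of change, and exceptions are named as such. Of genes outside the 35, only markers and at most 2 called genes per list and comparison are named. Each library's level is given for genes called at any time point. Promoter windows were matched by symbol, for 27 of 35 genes.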

Additional observations from a re-analysis of the deposited data

Results flagged for a closer look

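A gap test for 1 library apart from the other 3 (Dixon's test at its 95% value) was run on the 4-library groups, and it marked 27 of 150 sets of 4, where it would mark about 1 in 20 (7.5) of normally distributed sets. Levels near 0 are not so distributed, and in several marked sets the nearest library was at 0 CPM. The 27 against 7.5 is therefore no measure against chance. Groups of 3 were not tested. In ME at 24 h, library 4 was lowest for Map1b (175 CPM), library 2 was lowest for Chgb (7.09 CPM), and library 1 was highest for Npy (10.6 CPM). In ME at 72 h, library 4 was highest for Sst (24.1 CPM) and for Slc18a3 (8.57 CPM).

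In the pulldown at 3 h, library 1 was apart for Scg2 (758 CPM) and Nmu (22.5 CPM), and the library apart for Nefm had 58.9 CPM. At 24 h, single high values were 340 CPM for Gap43, 6.01 for Phox2a, 192 for Vip, 2.66 for Calcb, 2.63 for Nmu, 4.63 for Sst, 22 for Slc5a7 and 3.88 for Dbh. At 72 h, the values apart were 71.1 CPM for Elavl4, 72.6 for Uchl1, 27 for Chga, 16.5 for Tac1, 26.7 for Calcb, 30.2 for Penk, 29.3 for Npy, 0.955 for Sst, 35 for Slc5a7, 0.473 for Chrna3 and 39.7 for Ddc. The value of Uchl1 was the lowest of its group and the others the highest, and those of Sst and Chrna3 were 1 count each.

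In the test of the interaction at 72 h (edgeR's quasi-likelihood test) 8 of 34 genes were called, each with a lower value of the change in the pulldown. By the labels the Cre line changes from naive to 72 h in ME only, which cannot be told apart from the interaction. DESeq2 called 10, 7 lower and 3 higher (Nefl, Nefm and Syt1). By edgeR the log2 difference was -4.06 for Nos1 (adjusted p = 0.0164) and -2.48 for Prph (adjusted p = 0.0277), beside a median of -0.98 over all genes, and the call was lost in 2 and 7 of 19 alternatives. The other 6 genes had 0 or 1 count in the pulldown at 72 h and were in the test only through the groups where they are expressed. Their fitted values depend on the prior count and are no measure of a difference: -9.74 for Phox2a, -9.50 for Nmu, -8.49 for Slc18a3, -7.72 for Dbh, -6.23 for Sst and -5.07 for Grp. Of all genes tested, 21.1% were called in that direction, and the share of AY036118 in these pulldown libraries was 58% to 80.1%.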

How the results depend on the processing

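No paired analysis was possible because the library names in the tables carry none of the replicate numbers of the labels. Of 1475 pairs of a called gene and an alternative, 1254 kept direction and call, 206 lost the call and 15 turned sign. Counts below are genes called higher and lower out of the 35, and the cause of each shift was not tested. In ME at 3 h, the count lower was 6 with library totals, 1 with no scaling, 17 with the reference genes and 8 with totals without AY036118 (an alternative added after the data were seen), and the count higher was 1 with no scaling. At 24 h they were 6 and 10 with library totals, 9 lower with no scaling and 1 higher with the reference genes. At 72 h they were 7 and 13 with library totals, 8 and 6 with no scaling, 0 higher with the reference genes, 1 higher with 1 spread for all groups and 6 higher with totals without AY036118. From 24 to 72 h they were 10 and 2 with no scaling and 8 higher with 1 spread. In the pulldown at 3 h the count higher was 0 with library totals, the reference genes, totals without AY036118 or 1 spread, 3 with no scaling, 4 with DESeq2, 5 with no filter and 2 without both high libraries. At 24 h DESeq2 gave 1 and 1. At 72 h the count lower was 11 with library totals, 12 with no scaling, 12 with the reference genes and 0 with no filter. For naive pulldown against ME the counts were 16 and 0 with library totals, 14 and 0 with totals without AY036118, 1 and 0 with 1 spread, 0 lower with the reference genes and 2 lower with DESeq2. The interaction gave 1 gene at 3 h and 1 at 24 h with DESeq2, and 14 with library totals and 20 with no scaling at 72 h.

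Log2 fold changes in ME at 72 h that turned sign were, with no scaling, Dbh 0.12, Elavl3 0.16, Gap43 0.53, Map1b 0.46, Penk 0.28, Phox2a 0.02, Scg2 0.21, Stmn3 0.43 and Tac1 0.51, with library totals, Gap43 0.20, Map1b 0.09, Stmn3 0.11 and Tac1 0.17, and with the reference genes, Uchl1 -0.17 and Vip -0.19.

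Leaving out 1 library gave 3 to 3 higher and 2 to 4 lower in ME at 3 h, 2 to 2 and 16 to 21 at 24 h, 1 to 3 and 21 to 24 at 72 h (1 without naive library 2 or 3), and 4 to 6 and 6 to 9 from 24 to 72 h. In the pulldown it gave 0 to 6 higher and 0 to 0 lower at 3 h (0 without naive library 1 or 3 or IM3h library 1, 4 without naive library 2, 6 without IM3h library 4), 0 to 0 and 0 to 1 at 24 h, and 0 to 0 and 3 to 9 at 72 h (3 without naive library 1 or 3). Naive pulldown against ME gave 5 to 10 higher and 0 to 8 lower (5 higher without ME library 2, 8 lower without pulldown library 2, 0 lower without any 1 ME library), and the interaction 0 to 1 at 3 h, 0 to 5 at 24 h (5 without pulldown IM24h library 1) and 5 to 11 at 72 h (5 without ME naive library 2 or 3). Where a gene is at 0 in a group, depth sets a limit of 3 counts per library.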
